A study of Rattus norvegicus with 4 samples.

Results

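The endothelial cells of the rat esophagus that carried an arterial gene signature numbered 1937 of 40724 kept cell barcodes in 4 single-cell RNA-seq libraries. They were selected from raw UMI counts (unique molecular identifiers, each marking 1 captured transcript) by a fixed gate. A barcode was kept when it held 500 UMIs or more, of which mitochondrial genes gave 20% or less. A blood endothelial cell had at least 2 UMIs of Cdh5, Egfl7 and Esam together, none of the leukocyte gene Ptprc, none of the lymphatic genes Prox1, Mmrn1 and Reln, and at most 30 UMIs of the fibroblast genes Col3a1 and Dcn per 10000. It was called arterial-gated when Gja4, Sox17 and Podxl together gave at least 1 UMI and more UMIs than the venular genes Selp and Vwf and than the capillary genes Gpihbp1, Apln, C1qtnf9 and Tcf15. Pecam1, also part of the gate, had no feature of that name. Since the gate chose the cells by these genes, their levels describe the selection and are no result.

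Arterial endothelium lines the high-pressure side of the circulation. Its identity is set up by VEGF and Notch signalling: the ligands Dll4, Jag1 and Jag2 on a neighbouring cell activate the receptors Notch1 and Notch4, which switch on repressors of the Hes and Hey families, and SoxF factors (Sox7, Sox17, Sox18) act beside them. These cells are coupled by the connexins Gja4 and Gja5, sense flow, and set the tone of the smooth muscle around them through nitric oxide, prostanoids and endothelin, and the response of the vessel wall to ionizing radiation includes the p53 programme of damaged cells.

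The rats were male Sprague-Dawley animals aged 6 weeks, and the esophageal region was exposed to X-rays at 1.7 Gy per minute. Controls received 5 exposures of 0 Gy and were taken at day 7, the single-dose group received 1 exposure of 35 Gy and was taken at day 7, and the fractionated groups received 5 daily exposures of 7 Gy and were taken at day 7 or day 14. The esophagi of 5 rats were pooled into 1 library per group, so each group is 1 sample. No comparison between groups has a replicate check, no test was possible, and intervals are exact 95% intervals that cover counting error only. The day 14 library had no control of its own day, so its difference from the control also spans 1 more week. The labels do not say whether the days count from the first or the last of the 5 exposures. The time since the last exposure may thus differ between the single-dose and fractionated libraries of day 7. Values of the 4 libraries are given below with the control first, then the single dose, then fractionated exposure at day 7 and at day 14.

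The gate held 333, 377, 390 and 837 cells. Their median depth was 4441, 4827, 2011 and 5338 UMIs, and their summed UMIs were 1901206, 2522402, 1167962 and 5275265, so the fractionated day 7 library gave the least precise values. The median mitochondrial share was 8.57%, 6.70%, 4.85% and 4.45%. Whole libraries held between 59805782 and 109618791 UMIs. No barcode of a gated cell was a gated cell in another library, and 3, 1, 3 and 9 of them occurred among the barcodes of another library. Levels are CPM, a gene's counts scaled to a common total, from the summed UMIs of the gated cells of a library.

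Some arterial genes outside the gate were higher in these cells than in the other endothelial classes, and others were not. Gja5, the connexin 40 gene of arterial endothelium, was at 27.4, 130.0, 119.9 and 71.5 CPM in arterial-gated cells, at 4.39, 4.93, 6.48 and 4.58 CPM in capillary-gated cells and at 0, 3.79, 3.64 and 3.83 CPM in venular-gated cells. Fbln5, which encodes the elastic fibre protein fibulin-5, was at 116, 269, 224 and 108 CPM, against 29.2, 29.6, 19.4 and 24.9 CPM in capillary-gated cells. Col8a1 was at 52.1, 97.9, 75.3 and 98.0 CPM, and its highest capillary or venular level in any library was 17.6 CPM. These 3 genes were higher in the arterial gate in all 4 libraries. With each cell thinned to an equal depth, control shares with a Cldn5 UMI were 35.0% of arterial-gated and 40.9% of capillary-gated cells. For the artery gene Efnb2 they were 10.1% and 13.4%, and the intervals overlapped for both genes. In the irradiated libraries the arterial-gated share was the higher one for both genes. For Cldn5 it was 25.4%, 28.8% and 28.2%, against 12.1%, 4.70% and 15.5% in capillary-gated cells. A list of 38 arterial genes outside the gate was then read against each other class among genes with at least 50 UMIs in the pair. In the 4 libraries, 11 of 32, 18 of 35, 14 of 29 and 16 of 37 compared members were at least 2-fold above the capillary-gated cells, where 3.26%, 5.74%, 3.99% and 3.86% of all compared genes were. Against the venular-gated cells the counts were 17 of 32, 22 of 35, 16 of 29 and 22 of 37, beside 12.0%, 7.57%, 3.62% and 8.91% of all compared genes. None of the compared members was 2-fold below the capillary-gated cells, and 3, 1, 2 and 1 were 2-fold below the venular-gated cells. These are descriptions of cells that the gate had already separated by other genes.

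**Figure D1:**
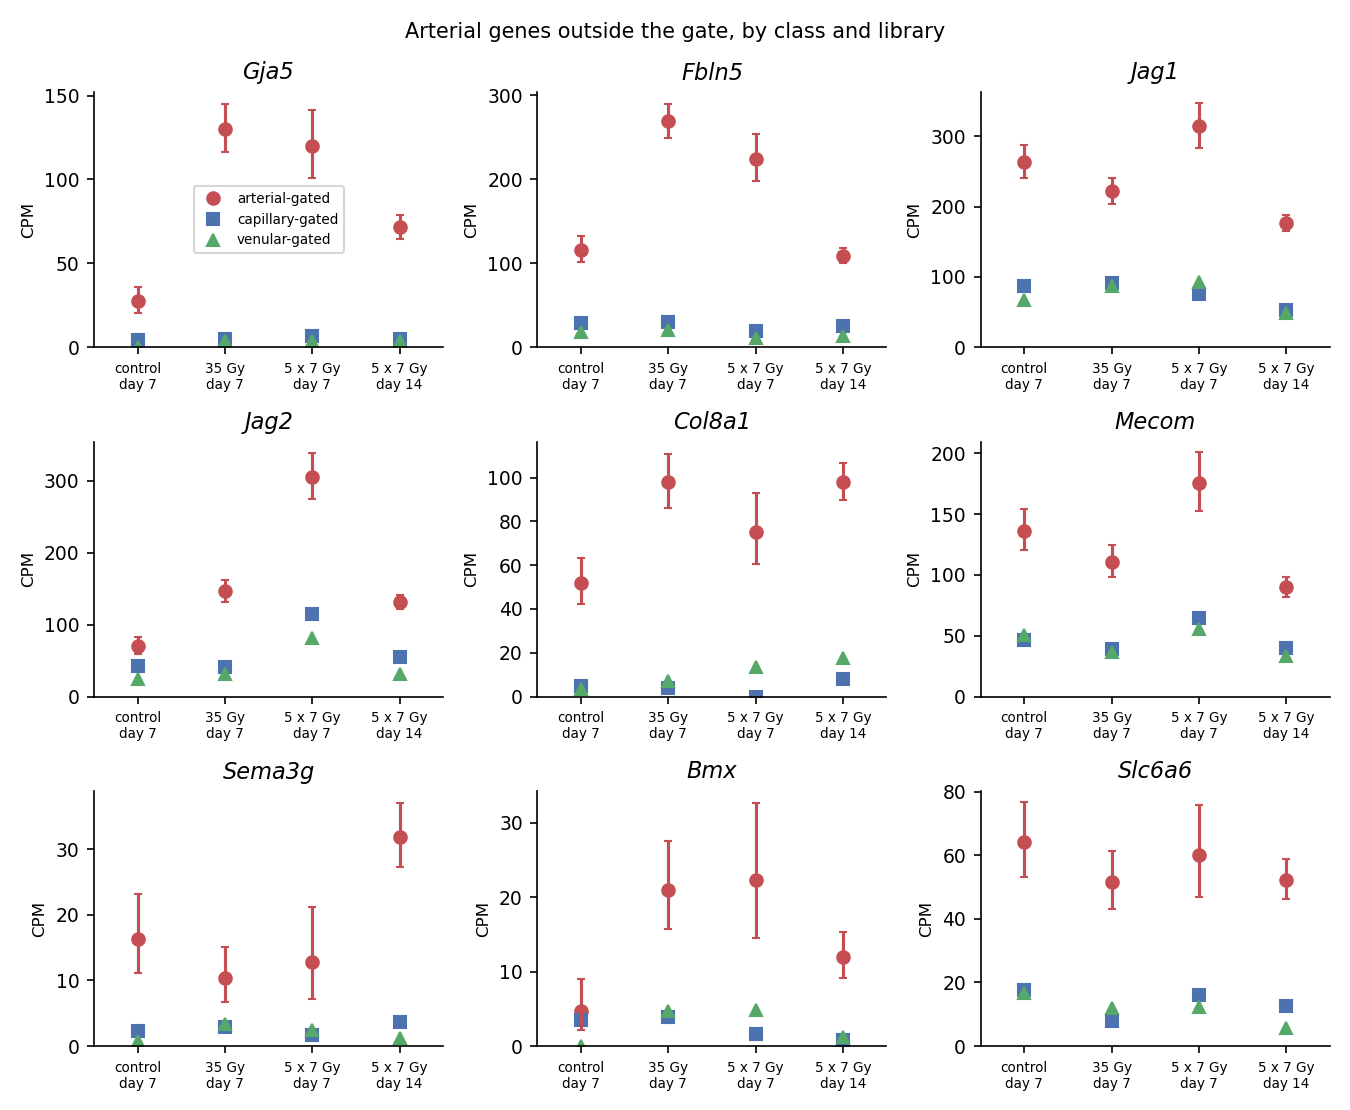
Level (CPM, linear axis) of 9 arterial genes outside the gate in arterial-gated (red circles, bars: exact 95% Poisson interval), capillary-gated (blue squares) and venular-gated cells (green triangles) of the 4 libraries. Gja5, Fbln5 and Col8a1 are higher in the arterial gate in each library, and Gja5 goes from 27.4 CPM in the control to 130.0 CPM after the single dose.

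A second kind of cell was also in the gate. Gja4 is expressed in vascular smooth muscle and pericytes as well as in arterial endothelium, and 60, 83, 16 and 119 cells entered by Gja4 alone. Of these, 85.0%, 83.1%, 37.5% and 88.2% had over 30 UMIs of the mural genes Acta2, Tagln, Rgs5 and Myh11 per 10000. Only 16.7%, 3.61%, 43.8% and 15.1% of them had a UMI of Cdh5, the VE-cadherin gene, while their Tagln level was 16537, 16159, 4552 and 9236 CPM. The label is therefore not borne out for most cells that entered by Gja4 alone. Cells with 2 or 3 of the arterial gate genes made up 228, 255, 269 and 615 of the members, and Cdh5 was detected in 81.1%, 85.9%, 82.5% and 86.5% of them. In all, 118, 89, 15 and 229 members, or 35.4%, 23.6%, 3.85% and 27.4%, were over the mural limit, and 36, 10, 7 and 78 of these lay between 30 and 60 UMIs per 10000. Among the members over the limit, 63, 20, 8 and 117 carried 2 or 3 of the arterial gate genes, and 49.2%, 19.1%, 66.7% and 50.7% had a UMI of Cdh5. Leaving out mural-high members thus also leaves out cells with these endothelial genes. The cells are called arterial-gated below, and results are also given for the 215, 288, 375 and 608 members with low mural genes. That split was chosen after the values were seen.

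**Figure D2:**
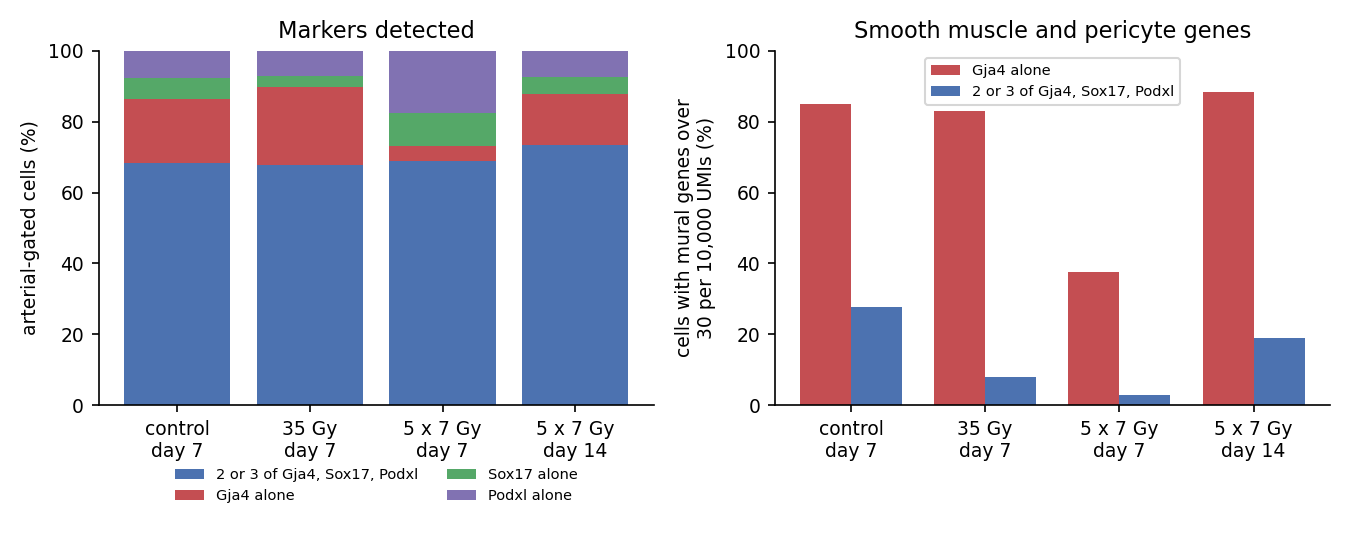
Left: share of arterial-gated cells (%) in each library by which of Gja4, Sox17 and Podxl was detected. Right: share (%) with mural genes over 30 UMIs per 10000 among cells with Gja4 alone and among cells with 2 or 3 gate genes; for Gja4 alone it is 85.0%, 83.1%, 37.5% and 88.2%.

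Genes of other cells were present at levels that differed between libraries. The 12 mural genes summed to 7558, 9426, 753 and 5417 CPM in all members and to 1040, 442, 248 and 637 CPM in members with low mural genes, and none of them was at 0. The 13 epithelial genes summed to 2396, 2489, 4404 and 488 CPM, with none at 0, and the 11 fibroblast genes to 1291, 385, 213 and 1023 CPM, with 3 at 0 in the fractionated day 7 library. Haemoglobin genes were highest in the control, at 653 CPM against 52.7, 25.7 and 49.5 CPM. The 17 immune genes summed to 606, 1132, 638 and 1115 CPM, with 2 to 4 at 0. The part of these genes in the results below was not tested, and a gene was taken as possible free RNA when its level in the arterial-gated cells was under 0.5 times its level in a non-endothelial class of the same library. In the comparisons with the control, none of the compared epithelial and fibroblast genes was above that limit. A doublet caller marked 2.10%, 2.12%, 5.13% and 1.79% of members, which were kept.

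At day 7 the arterial-gated cells held a larger part of the blood endothelium in both irradiated libraries than in the control. Their share of blood endothelial cells was 24.1% (21.9 to 26.5), 40.9% (37.7 to 44.1), 39.5% (36.4 to 42.6) and 31.8% (29.98 to 33.6). The single-dose share was 1.69 times that of the control (1.46 to 1.97), the fractionated day 7 share 1.64 times (1.41 to 1.90) and the day 14 share 1.31 times (1.16 to 1.5). The 2 irradiated day 7 libraries differed by a ratio of 0.966 (0.837 to 1.12), whose interval includes 1. Capillary-gated cells were 52.1%, 17.6%, 18.7% and 44.4% of the blood endothelium and venular-gated cells 9.43%, 22.9%, 23.6% and 12.5%. A larger arterial share at day 7 thus stood beside a smaller capillary share, and the gated cells were 333 of 1379, 377 of 922, 390 of 987 and 837 of 2636 blood endothelial cells.

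Of all kept barcodes the arterial-gated cells were 2.82% (2.53 to 3.13), 3.87% (3.49 to 4.27), 4.29% (3.89 to 4.73) and 8.30% (7.77 to 8.86). The ratio to the control was 1.37 (1.18 to 1.60), 1.52 (1.31 to 1.77) and 2.95 (2.59 to 3.36) in the single-dose, fractionated day 7 and day 14 libraries. The day 14 library was highest over this denominator and lay between the control and the day 7 libraries over blood endothelium. Shares also depend on the digestion and the removal of dead cells. With the fibroblast limit at 5 UMIs per 10000 the log2 ratio of the share of kept barcodes was 1.88 for the single dose and 2.30 for fractionated day 7, against 0.46 and 0.61.

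The gate is a comparison between genes that themselves differed between libraries. Over all blood endothelial cells, Selp, which encodes P-selectin and stands on the venular side of the gate, was at 182, 801, 180 and 152 CPM. The arterial gate genes summed to 509.8, 500.1, 781 and 586 CPM, the venular ones to 304, 951, 608 and 323 CPM, and the capillary ones to 928, 229, 407 and 1177 CPM. A change in the number of arterial cells and a change in the level of the gate genes cannot be told apart. Of the members, 103, 84, 114 and 190 were ahead by 1 UMI, and 96, 56, 85 and 164 cells just outside were tied with the capillary or venular genes.

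**Figure D3:**
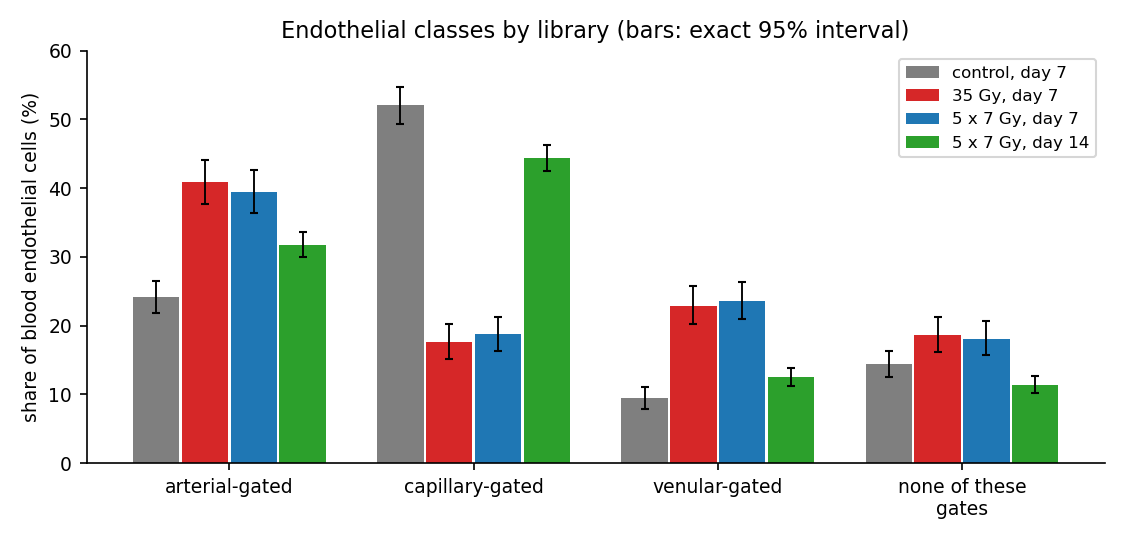
Share of blood endothelial cells (%) in the arterial, capillary and venular gates and in none of them, by library, with exact 95% binomial intervals. The arterial share is 24.1% in the control and 40.9%, 39.5% and 31.8% in the irradiated libraries, and the capillary share 52.1% against 17.6%, 18.7% and 44.4%.

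After the single dose of 35 Gy the arterial-gated cells had more transcripts of a prostaglandin transporter, a calcium channel and vessel wall matrix, and far fewer immediate-early transcripts, than in the control. Among the 7187 genes compared, those with at least 50 UMIs in the pair, 475 (6.61%) were higher by 2-fold or more and 534 (7.43%) lower by as much. In members with low mural genes the shares were 8.02% and 7.63% of 5763 genes. Slco2a1, the prostaglandin uptake transporter, was at 7.89, 94.8, 117 and 12.5 CPM, 12.0-fold (7.14 to 21.8) higher than in the control. Trpv4, a calcium channel that responds to stretch and flow, was at 6.84, 69.8, 50.5 and 24.6 CPM, 10.2-fold (5.81 to 19.5) higher. Vwa1, a matrix protein of basement membranes, was at 53.7, 461, 184 and 127 CPM, 8.60-fold (7.02 to 10.6) higher. Sfxn1, a mitochondrial serine transporter, was at 4.73, 42.0, 6.85 and 8.15 CPM, 8.88-fold (4.5 to 19.9) higher. These 4 genes were also at least 2-fold higher in members with low mural genes, with log2 ratios of 3.68, 3.22, 3.13 and 2.44. Slamf7, best known as a receptor of immune cells, was not found in the control and was at least 21.9-fold higher, at 0, 34.5, 1.71 and 2.46 CPM. Pi15, a peptidase inhibitor, was at 2.63, 40.0, 0 and 1.71 CPM, but its log2 ratio of 3.93 came down to 0.97 without the mural-high cells.

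The genes furthest below the control after the single dose were Fosb, Fam71a, Hspa1b, Egr1, Fos and Irf1. Irf1, an interferon-induced transcription factor, was at 675, 27.8, 57.4 and 1022 CPM, 24.3-fold (19.1 to 31.4) lower. Fam71a was at 37.3, 0, 0 and 10.2 CPM, with no UMI in either irradiated day 7 library and thus at least 31.4-fold lower after the single dose. Of the 1009 genes past 2-fold, 848 were past it the same way among members with low mural genes and 19 changed sign.

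At day 7 of the fractionated schedule the cells carried many more transcripts of Sox18, of 2 semaphorin and matrix genes and of Slco2a1 than in the control. Of 6220 compared genes, 703 (11.3%) were higher by 2-fold or more and 665 (10.7%) lower by as much. Sox18, a SoxF transcription factor of endothelium, was at 35.2, 63.0, 309.9 and 51.2 CPM, 8.79-fold (6.76 to 11.6) higher than in the control. Sema3f, a secreted guidance protein, was at 18.9, 86.8, 171 and 31.8 CPM, 9.04-fold (6.32 to 13.3) higher. Col15a1, a collagen of the basement membrane zone, was at 89.9, 228, 541 and 88.0 CPM, 6.02-fold (5.07 to 7.17) higher. Sox18 was at its highest in this library, whereas Sema3f and Col15a1 were also over 2-fold above the control after the single dose. Slco2a1 was 14.9-fold (8.70 to 27.3) higher. Ppm1f, a protein phosphatase, was at 13.7, 40.8, 99.3 and 33.9 CPM, 7.26-fold (4.71 to 11.6) higher. Scgb1a1, a secretory epithelial protein, was at 3.16, 10.3, 42.8 and 3.03 CPM, 13.6-fold (5.81 to 38.7) higher, with 3.16 CPM resting on few UMIs in the control. The 6 named genes that were lowest were Fosb, Fos, Egr1, Jun, Hspa1b and Gadd45b, all rapid stress-response genes. With low mural genes alone, 9.84% of 5155 genes were higher by as much and 8.44% lower. Of 1368 genes past 2-fold, 1056 were past it the same way in members with low mural genes and 11 changed sign.

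At day 14 of the fractionated schedule the targets of p53 led the list of higher genes, and mitotic genes were among the lower ones. Of 8429 compared genes, 355 (4.21%) were at least 2-fold higher than in the day 7 control and 227 (2.69%) at least 2-fold lower. Gdf15, a secreted stress cytokine and p53 target, was at 4.73, 16.3, 17.1 and 176 CPM, 37.2-fold (19.5 to 81.6) higher. Egr4, an immediate-early transcription factor, was at 1.58, 0, 0 and 19.5 CPM, 12.4-fold (4.12 to 61.0) higher. The other 4 leading genes were the p53 targets Phlda3, Gtse1, Ephx1 and Ccng1, given below. Il33, a nuclear alarmin cytokine of endothelium, was at 295, 80.5, 137 and 128 CPM, 2.30-fold (2.06 to 2.58) lower, and it was at least 2-fold lower in each irradiated library. Ube2c, a ubiquitin-conjugating enzyme of mitotic exit, was at 55.8, 60.3, 42.8 and 20.3 CPM, 2.75-fold (2.08 to 3.63) lower. Cdc20, which activates the same step, was at 28.9, 28.1, 23.1 and 9.86 CPM, 2.93-fold (1.97 to 4.37) lower. Fam71a was 3.65-fold (2.52 to 5.30) lower. Csf3, the granulocyte growth factor, was at 19.5, 57.5, 0.856 and 3.03 CPM, but 67.6% of its control UMIs came from 1 cell. With low mural genes alone, 4.85% of 7088 genes were higher by as much and 3.09% lower. Of 582 genes past 2-fold, 496 were past it the same way in members with low mural genes and 6 changed sign.

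The Notch pathway had no common direction, and 2 of its target genes were low in both irradiated day 7 libraries. Of 29 pathway genes with a feature, 21, 18 and 24 were compared against the control in the single-dose, fractionated day 7 and day 14 libraries. Of these, 2, 3 and 0 were higher by 2-fold or more and 4, 4 and 0 lower by as much, against 6.61%, 11.3% and 4.21% and 7.43%, 10.7% and 2.69% of all compared genes. The median log2 ratio was -0.25, 0.34 and 0.04, beside 0.14, 0.11 and 0.07 for all compared genes. Among the ligands, Jag2 was at 70.5, 147, 306 and 131 CPM, 2.08-fold (1.70 to 2.56) and 4.34-fold (3.55 to 5.33) above the control in the day 7 libraries. Jag1 was at 264, 222, 314 and 176 CPM, within 1.5-fold of the control in each irradiated library. Dll4 was at 52.6, 41.6, 71.9 and 75.6 CPM, also within 1.5-fold. Among the receptors, Notch1 was at 171, 149, 266 and 139.5 CPM. Notch4 was at 32.1, 54.7, 86.5 and 62.7 CPM, 2.70-fold (1.94 to 3.77) higher in the fractionated day 7 library. Nrarp, a Notch target that limits the signal, was at 509.7, 163, 116 and 554 CPM, 3.12-fold (2.78 to 3.51) lower after the single dose and 4.41-fold (3.68 to 5.32) lower at fractionated day 7. Hes1, a Notch-induced repressor that other signals also induce, was at 246, 59.9, 59.9 and 309 CPM, 4.11-fold (3.42 to 4.97) and 4.11-fold (3.19 to 5.36) lower in the same libraries. At day 14 both were within 1.5-fold of the control. In capillary-gated cells the log2 ratios of Nrarp were -1.35 and -1.17 at day 7, and in venular-gated cells -1.50 and -1.71, so its low level was seen in all 3 classes.

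The wider arterial list had medians of both signs. Of its 38 genes, 36, 33 and 36 were compared against the control, 6, 6 and 2 of them were higher by 2-fold or more and 2, 2 and 0 lower by as much, where all compared genes gave 6.61%, 11.3% and 4.21% and 7.43%, 10.7% and 2.69%. Its median log2 ratio was -0.22, 0.22 and 0.13. With the stricter limit of 5 fibroblast UMIs per 10000 the medians were 0.28, 0.51 and 0.53, so the sign after the single dose turned. Among the 4 leading members of the list per comparison, ranked by the interval bound nearest 1, some were lower than in the control. These were Fbln2 after the single dose, Plac9 at fractionated day 7 and Eln, by less than 2-fold, at day 14, and the others were higher. Gja5 was past 2-fold in each irradiated library, 4.75-fold (3.54 to 6.5), 4.38-fold (3.17 to 6.15) and 2.61-fold (1.95 to 3.56) above the control. Bmx, a tyrosine kinase of arterial endothelium, was at 4.73, 21.0, 22.3 and 11.9 CPM, 4.44-fold (2.17 to 10.2) higher after the single dose and 2.52-fold (1.25 to 5.77) higher at day 14, and had too few UMIs for a ratio at fractionated day 7. Fbln5 was 2.32-fold (1.99 to 2.72) higher after the single dose and back near the control at day 14, with 108 CPM against 116. Unc5b, a netrin receptor, was at 26.3, 40.0, 94.2 and 41.7 CPM, 3.58-fold (2.54 to 5.11) higher at fractionated day 7. Alpl, alkaline phosphatase, was at 48.4, 32.1, 113 and 51.0 CPM, 2.34-fold (1.78 to 3.08) higher in the same library. Efnb2, the ephrin-B2 gene that marks arteries from veins, was at 115, 83.7, 168 and 115 CPM, and Cldn5, a tight junction claudin, at 491, 346, 420.4 and 467 CPM. Neither of them passed 2-fold against the control in any library. Hey1, a direct Notch target, was at 4.21, 2.38, 5.14 and 4.17 CPM, too low for a ratio. Sema3g was at 16.3, 10.3, 12.8 and 31.8 CPM and highest at day 14. Esm1, the endocan gene of tip cells, was at 43.1, 2.78, 34.2 and 41.1 CPM, 15.5-fold (7.21 to 39.9) lower after the single dose, with 25.6% of its control UMIs in 1 cell.

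The share of cells with a UMI of Gja5 followed its level after thinning but not before, where day 14 stood above fractionated day 7. Without thinning, it was 12.6%, 30.5%, 18.5% and 24.1% at the median depths given above, and after thinning each cell to 1000 UMIs it was 3.47% (1.74 to 6.12), 13.0% (9.67 to 16.9), 11.8% (8.54 to 15.8) and 6.78% (5.16 to 8.71). Thinning left out cells below 1000 UMIs and kept 317, 354, 330 and 826. Epithelial cells, which should lack Gja5, had 0 of 1755, 0 of 835, 1 of 2404 and 0 of 313 thinned cells with a UMI, where 0 of 1755 allows a share of up to 0.171% (3 counts of the total), at median depths of 14946, 20026, 4692 and 13264 UMIs. For Sox18 the thinned shares were 3.47%, 6.5%, 32.4% and 5.81%, and for Nos3 8.52%, 23.4%, 22.7% and 7.26%. The unthinned shares were 16.5%, 28.6%, 48.5% and 23.1% for Sox18 and 27.0%, 50.9%, 39.7% and 32.6% for Nos3. The epithelial shares were at most 0.639% for Sox18 and at most 0.359% for Nos3 after thinning.

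Genes of vascular tone had medians above those of all compared genes in each irradiated library, and more of them passed 2-fold at day 7 than at day 14. Of 35 vasoactive genes with a feature, 24, 18 and 24 were compared, 7, 8 and 2 were higher by 2-fold or more and 2, 4 and 1 lower by as much than in the control. Over all compared genes the shares were 6.61%, 11.3% and 4.21% and 7.43%, 10.7% and 2.69%. The list's median log2 ratios were 0.44, 0.79 and 0.38, beside 0.14, 0.11 and 0.07 for all compared genes. Over all members the day 14 median thus stood as far above them as that of the single dose. In members with low mural genes the list's medians were 0.43, 0.85 and 0.15, beside 0.17, 0.11 and 0.07, so the day 14 median was then close to that of all compared genes. Nos3, the endothelial nitric oxide synthase, was at 58.9, 219, 208 and 78.1 CPM, 3.71-fold (3.03 to 4.59) and 3.53-fold (2.81 to 4.46) above the control at day 7. Ddah1, which degrades an inhibitor of that enzyme, was at 7.89, 44.8, 38.5 and 12.3 CPM, 5.68-fold (3.30 to 10.5) and 4.88-fold (2.67 to 9.43) higher. At day 14 they were 1.33-fold (1.07 to 1.65) and 1.56-fold (0.881 to 2.95) above the control. Ece1, which cleaves the endothelin precursor, was at 209, 681, 646 and 325 CPM, 3.25-fold (2.92 to 3.64) and 3.08-fold (2.73 to 3.49) higher, while Edn1, the precursor itself, was at 22.1, 27.0, 12.8 and 33.4 CPM. S1pr1, the receptor for sphingosine 1-phosphate, was at 125, 216, 331 and 141 CPM, 2.65-fold (2.25 to 3.12) higher at fractionated day 7. Adm, adrenomedullin, was at 76.3, 6.34, 0 and 34.9 CPM. It was 12.0-fold (7.16 to 21.6) lower after the single dose and at least 29.7-fold lower at fractionated day 7, and in the control its level in a non-endothelial class was over 2 times that in these cells. Entpd1, the ectonucleotidase CD39, belonged to the coagulation list and was at 186, 523, 833 and 245 CPM, 2.81-fold (2.49 to 3.16) and 4.47-fold (3.96 to 5.07) higher at day 7. In capillary-gated cells the day 7 log2 ratios of Nos3 were 1.02 and 0.87 and those of Entpd1 2.31 and 2.53, and in venular-gated cells they were 1.96 and 1.39 for Nos3 and 1.73 and 2.19 for Entpd1.

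Flow-responsive genes split. Of 25 listed genes with a feature, 19, 19 and 23 were compared, 2, 5 and 2 were higher by 2-fold or more, 4, 3 and 0 lower by as much, against 6.61%, 11.3% and 4.21% and 7.43%, 10.7% and 2.69% of all compared genes. The median log2 ratio was -0.03, 0.03 and 0.42. Klf4, a flow-induced transcription factor that is also an immediate-early gene, was at 1207, 220.4, 219 and 1344 CPM, 5.47-fold (4.99 to 6.02) and 5.50-fold (4.84 to 6.29) lower at day 7. Klf2, its close relative, was at 36.8, 22.2, 24.0 and 70.3 CPM, lowest in the day 7 irradiated libraries and highest at day 14, with no comparison with the control past 2-fold. Piezo1, a mechanically gated channel, was at 20.5, 32.5, 65.1 and 28.8 CPM, 3.17-fold (2.13 to 4.79) higher at fractionated day 7. Trpv4 was the 1 compared member past 2-fold on the higher side in each of the 3 comparisons with the control.

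**Figure D4:**
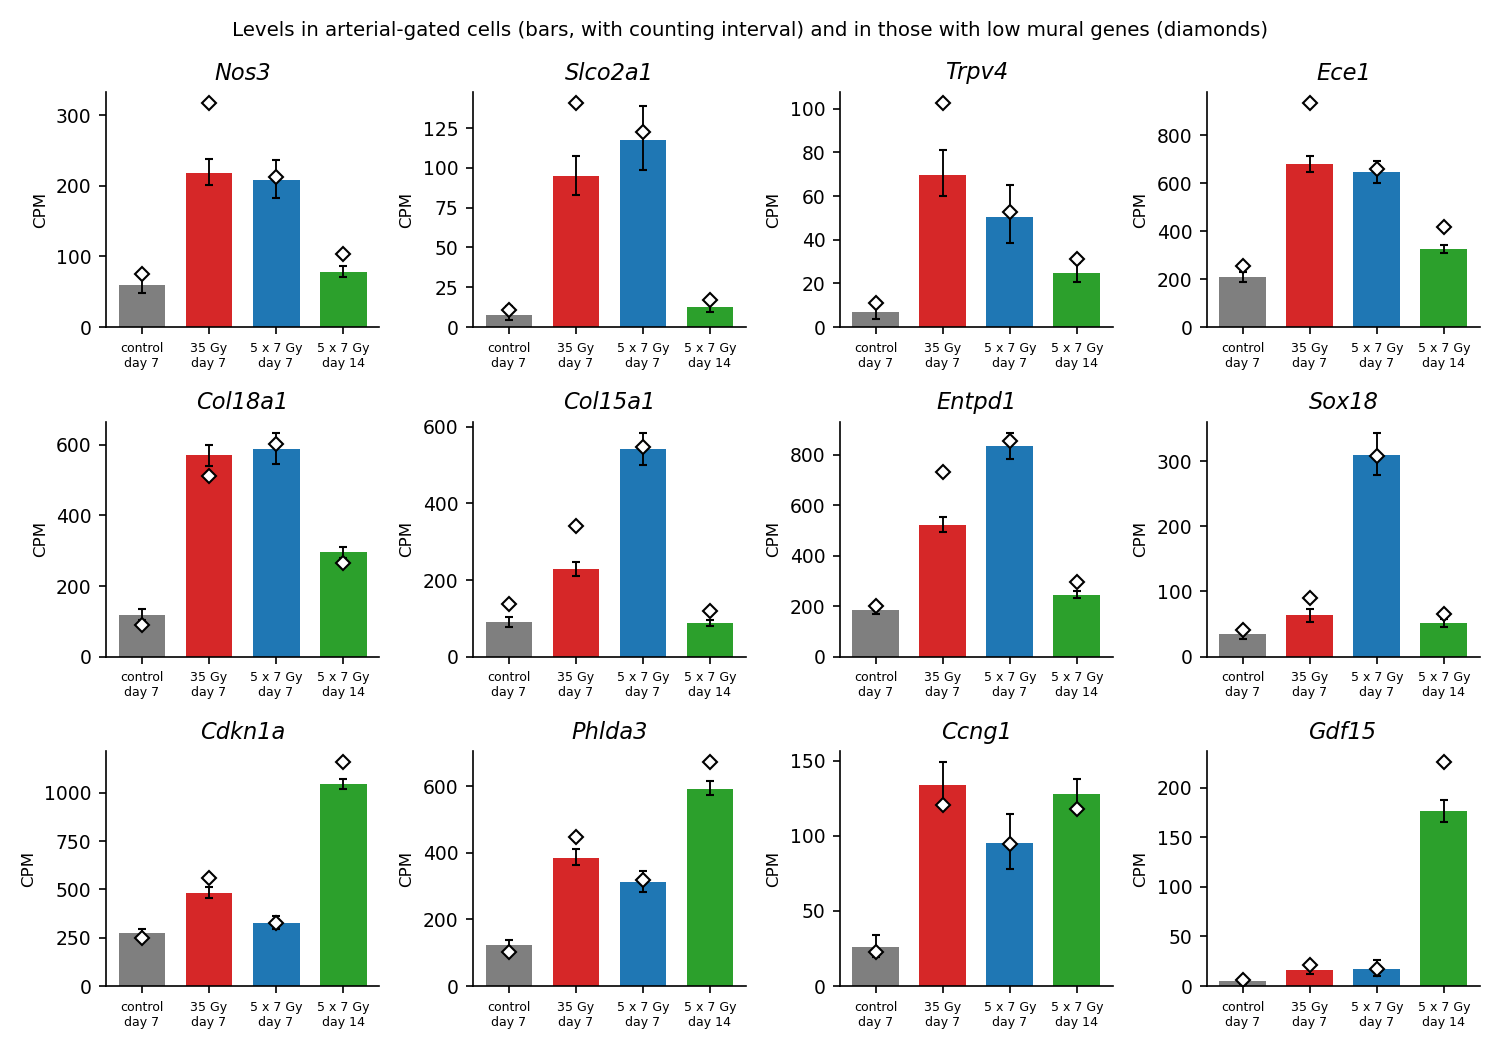
Level (CPM, linear axis from 0) of 12 genes in the arterial-gated cells of each library (bars, with exact 95% Poisson interval) and in members with low mural genes (diamonds). Nos3, Slco2a1, Trpv4, Ece1, Col18a1 and Entpd1 are highest in the 2 irradiated day 7 libraries, Sox18 in the fractionated day 7 library, and Cdkn1a, Phlda3 and Gdf15 at day 14.

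Several collagens and laminins of the basement membrane were higher at day 7, while many other wall matrix genes were expressed more by other cells of the libraries. Of 46 wall matrix genes, 43, 37 and 43 were compared, 9, 9 and 5 were higher by 2-fold or more and 3, 5 and 0 lower by as much. All compared genes gave 6.61%, 11.3% and 4.21% higher and 7.43%, 10.7% and 2.69% lower, so the 5 lower genes at fractionated day 7 were near the background. The median log2 ratio was 0.29, -0.28 and 0.23, and over the 19, 18 and 15 genes above the free RNA limit it was 0.29, 0.70 and 0.31. The sign at fractionated day 7 thus differed between these counts of the list. Col18a1, the source of endostatin, was at 119, 570.5, 589 and 295 CPM, 4.80-fold (4.17 to 5.55), 4.96-fold (4.26 to 5.78) and 2.48-fold (2.16 to 2.87) above the control. Col4a1, a main chain of basement membrane collagen, was at 797, 1527, 1634 and 1385 CPM, 2.05-fold (1.91 to 2.19) higher at fractionated day 7. Lama5, a laminin chain, was at 74.7, 142, 238 and 103 CPM, 3.19-fold (2.59 to 3.93) higher in the same library. Mmp2, a gelatinase, was at 44.7, 142, 314 and 359 CPM, and Timp1, a metalloproteinase inhibitor, at 289, 1219, 195 and 434 CPM, but both were under the free RNA limit in every comparison with the control, so their levels may include RNA of other cells.

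Among the p53 targets, more genes were past 2-fold on the higher side at day 14 than at day 7. Of 40 targets with a feature, 24, 22 and 26 were compared, 6, 5 and 10 were higher by 2-fold or more and 6, 4 and 1 lower by as much, beside 6.61%, 11.3% and 4.21% of all compared genes on the higher side and 7.43%, 10.7% and 2.69% on the lower. The median log2 ratio was 0.02, 0.23 and 0.44, beside 0.14, 0.11 and 0.07 for all compared genes, and at day 14 it was 0.53 in members with low mural genes, 0.50 in capillary-gated cells and 0.70 in venular-gated cells. Cdkn1a, the cell cycle inhibitor p21, was at 272, 483, 326 and 1044 CPM, 1.78-fold (1.60 to 1.97), 1.20-fold (1.05 to 1.37) and 3.84-fold (3.51 to 4.21) above the control. Phlda3, an inhibitor of Akt, was at 122, 386, 313 and 594 CPM, 3.16-fold (2.74 to 3.67), 2.56-fold (2.17 to 3.03) and 4.86-fold (4.26 to 5.58) higher. Ccng1, cyclin G1, was at 25.8, 134, 95 and 128 CPM, 5.20-fold (3.84 to 7.17) higher after the single dose and 4.96-fold (3.71 to 6.77) at day 14, and at fractionated day 7 its level was under the free RNA limit. Aen, an apoptosis-linked exonuclease, was at 14.7, 66.2, 36.0 and 69.8 CPM, 4.5-fold (3.0 to 6.97), 2.44-fold (1.48 to 4.09) and 4.74-fold (3.22 to 7.23) higher. Phlda3 and Aen were past 2-fold in each irradiated library. Cdkn1a passed 2-fold at day 14 and not at day 7.

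Rps27l, a ribosomal protein paralogue, was at 222, 965, 869.9 and 721 CPM, 4.34-fold (3.91 to 4.82), 3.91-fold (3.49 to 4.39) and 3.24-fold (2.93 to 3.59) above the control. Its reads can be shared with its near copy Rps27, so this level is uncertain. Bax, a pro-apoptotic BCL2 relative, was at 149, 353, 277 and 308 CPM, 2.36-fold (2.07 to 2.71) higher after the single dose and 2.06-fold (1.82 to 2.35) higher at day 14. Ephx1, an epoxide hydrolase, was at 50.5, 59.1, 181 and 255 CPM, 3.58-fold (2.80 to 4.60) and 5.05-fold (4.10 to 6.28) higher in the fractionated libraries, with no 2-fold difference after the single dose. Gtse1, a G2-phase regulator of p53, was at 1.05, 7.93, 19.7 and 16.1 CPM, 15.3-fold (4.11 to 129) higher at day 14. Mdm2, the ubiquitin ligase that removes p53, was at 62.1, 58.3, 51.4 and 185 CPM, 2.98-fold (2.46 to 3.64) higher at day 14, where its level in a non-endothelial class was over 2 times that in these cells. Btg2, an antiproliferative gene that is also induced early by stress, went the other way at day 7, at 2697, 315, 187 and 3902 CPM, 8.57-fold (7.95 to 9.25) and 14.5-fold (12.6 to 16.6) lower. Without thinning, Gdf15 was detected in 2.40%, 7.69%, 4.87% and 37.0% of the cells, and after thinning in 0.315%, 2.26%, 2.42% and 13.9%, against 0.513%, 0.599%, 0.208% and 0.958% of thinned epithelial cells.

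The 10 targets that were at least 2-fold higher in any irradiated library were looked up in the RefSeq promoter table of the GRCr8 build, which held all of them but Bax. A p53 half-site, searched by its consensus on both strands in the 250 bases before each start, was found for 4 of the 9 genes, Cdkn1a, Ccng1, Aen and Gtse1. Of all 33469 promoters of the same length, 2221 (6.64%) held one. The 9 genes were taken from a list of p53 targets, so more half-sites among them is no result of these data. The 2 counts also differ in unit, since the first is by gene, with more than 1 promoter for Gdf15 and Ephx1, and the second by promoter. Of these 4, the 3 promoters of genes with at least 2-fold higher levels and the most UMIs are shown, for Cdkn1a (chr20:7150682-7150931, + strand), Ccng1 (chr10:25684877-25685126, - strand) and Aen (chr1:142224283-142224532, + strand), 5′ to 3′ along the gene, with the half-site in capitals.
Cdkn1a: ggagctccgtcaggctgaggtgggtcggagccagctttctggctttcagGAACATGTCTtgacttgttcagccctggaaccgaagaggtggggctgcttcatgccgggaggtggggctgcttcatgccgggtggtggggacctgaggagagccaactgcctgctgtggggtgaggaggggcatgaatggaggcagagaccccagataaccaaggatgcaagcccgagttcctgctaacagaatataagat
Ccng1: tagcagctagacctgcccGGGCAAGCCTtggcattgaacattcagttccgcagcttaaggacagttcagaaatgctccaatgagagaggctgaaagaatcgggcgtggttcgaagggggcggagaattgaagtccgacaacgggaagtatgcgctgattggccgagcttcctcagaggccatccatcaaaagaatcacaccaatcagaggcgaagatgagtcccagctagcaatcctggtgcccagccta
Aen: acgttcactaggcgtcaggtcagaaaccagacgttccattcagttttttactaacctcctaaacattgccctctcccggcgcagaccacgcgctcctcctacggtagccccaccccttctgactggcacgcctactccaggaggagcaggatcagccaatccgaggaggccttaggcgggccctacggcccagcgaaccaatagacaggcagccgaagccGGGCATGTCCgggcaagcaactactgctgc
The half-site runs from -201 to -192 relative to the start of Cdkn1a, from -232 to -223 for Ccng1 and from -30 to -21 for Aen. A match is a description of these letters, not a bound site or a cause, and no match says only that they were not in this window.

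Immediate-early and heat shock genes were low in both irradiated day 7 libraries. Of 43 such genes, 37, 37 and 41 were compared against the control, none was at least 2-fold higher in the day 7 libraries and 31 and 34 were at least 2-fold lower, while at day 14 3 were higher and 1 lower. All compared genes gave 6.61%, 11.3% and 4.21% higher and 7.43%, 10.7% and 2.69% lower. The median log2 ratio of the list was -2.57, -3.85 and 0.25. Fos was at 9252, 438, 23.1 and 12235 CPM, 21.1-fold (19.9 to 22.5) and 400.2-fold (275 to 607) lower at day 7. Jun, its AP-1 partner, was at 6654, 386, 84.8 and 6118 CPM. Egr1 was at 3908, 178, 42.8 and 2653 CPM, and the heat shock chaperone Hspa1b at 4141, 189, 59.9 and 5708 CPM. The control and day 14 libraries were high and the irradiated day 7 libraries low. The same list had medians of -2.65, -3.37 and -0.07 in capillary-gated cells and -3.00, -4.28 and -0.21 in venular-gated cells, so the difference ran through the other endothelial classes of these libraries. Tissue was stored cold and shipped before digestion, and differences in handling between the pooled libraries cannot be told apart from those of exposure.

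**Figure D5:**
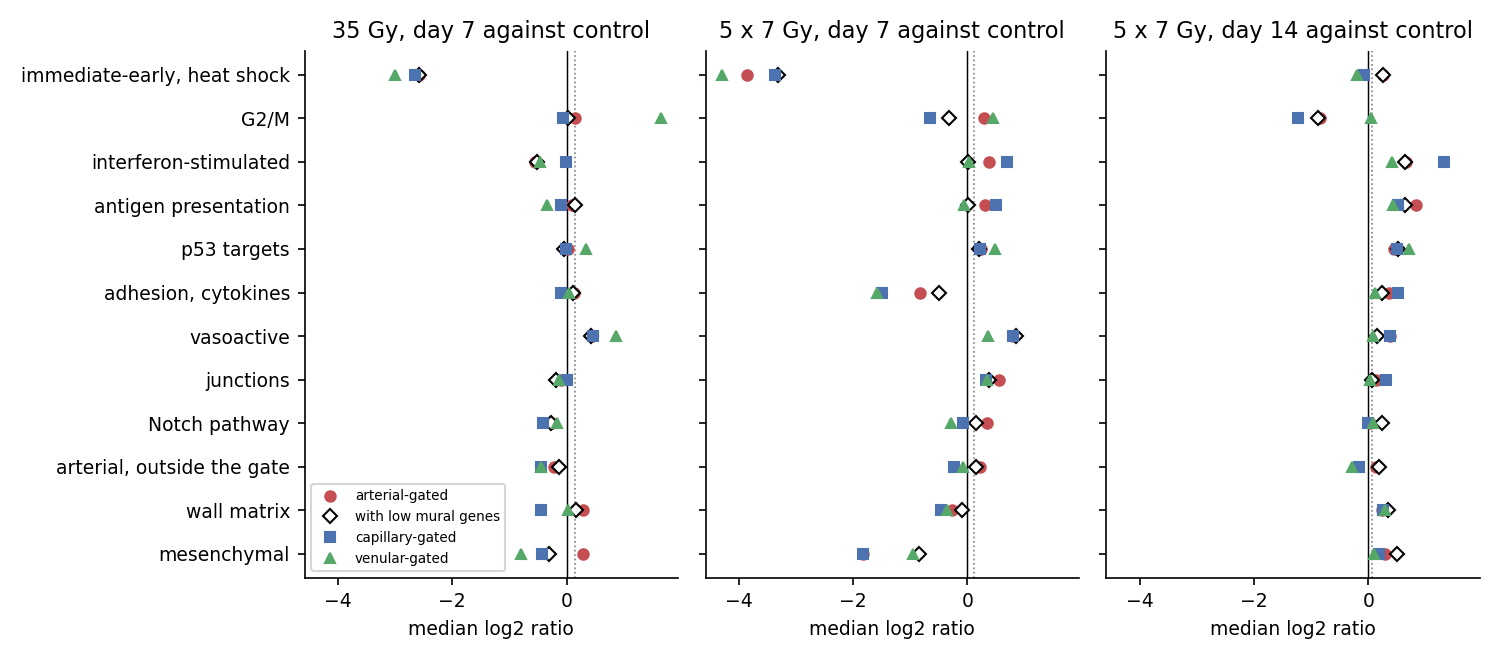
Median log2 CPM ratio to the control of each gene list in arterial-gated cells (red circles), members with low mural genes (open diamonds), capillary-gated (blue squares) and venular-gated cells (green triangles), with 1 panel per irradiated library; the dotted line is the median of all compared genes. The immediate-early and heat shock list is at -2.57 and -3.85 in the day 7 panels and at 0.25 at day 14.

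Junction genes had a median above that of all compared genes at fractionated day 7, but few of them passed 2-fold. Of 30 junction genes with a feature, leaving out gate genes, 22, 22 and 23 were compared. Of these, 1, 4 and 1 were higher by 2-fold or more and 0, 1 and 2 lower by as much, with medians of -0.10, 0.55 and 0.13. The shares of all compared genes were 6.61%, 11.3% and 4.21% higher and 7.43%, 10.7% and 2.69% lower. In members with low mural genes 2 of 21 were past 2-fold on the higher side at fractionated day 7, near the 9.84% of all genes there, and the median was 0.37 beside 0.11. Among the connexins, Gja1 (connexin 43) was at 125, 168, 291 and 42.7 CPM but was under the free RNA limit in every comparison. Gjc1 (connexin 45), a connexin of smooth muscle, was at 95.7, 121, 3.42 and 104 CPM, 28.0-fold (10.7 to 104) lower at fractionated day 7, the library with the fewest mural-high members, and its log2 ratio in members with low mural genes was -4.04.

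Leukocyte adhesion and cytokine genes gave a mixed picture, with more of them lower than higher by 2-fold in both irradiated day 7 libraries. Of 38 genes, 25, 22 and 28 were compared, 5, 3 and 5 were higher by 2-fold or more and 7, 11 and 2 lower by as much, beside 6.61%, 11.3% and 4.21% and 7.43%, 10.7% and 2.69% of all compared genes. The medians were 0.13, -0.83 and 0.35. Over the 14, 13 and 18 genes above the free RNA limit the medians were 0.18, 0.35 and 0.61, so the sign at fractionated day 7 differed between these counts of the list. At fractionated day 7 the median of the whole list was -0.49 in members with low mural genes, -1.49 in capillary-gated cells and -1.59 in venular-gated cells. Ranked by the interval bound nearest 1, the leading members at fractionated day 7 were Cxcl1, Ccl2, Cxcl10 and Nfkbiz, all lower than in the control. After the single dose they were Cxcl10, Nfkbiz and Cxcl1, which were lower, and Sod2, which was higher. At day 14 they were Csf3 and Il33, which were lower, and Il6 and Cxcl2, which were higher. The part of free RNA in the values of this list was not tested. Icam1, a ligand of leukocyte integrins, was at 134, 63.4, 30.8 and 240.4 CPM, 4.33-fold (3.05 to 6.33) lower at fractionated day 7. Vcam1 was at 32.6, 8.33, 22.3 and 31.1 CPM. Both of these were under the free RNA limit at day 7. Cx3cl1, the membrane chemokine fractalkine, was at 32.6, 33.7, 118 and 79.6 CPM, 3.62-fold (2.67 to 4.97) and 2.44-fold (1.87 to 3.24) higher in the fractionated libraries and not past 2-fold after the single dose. Sele, E-selectin, was at 14.2, 63.4, 24.0 and 12.7 CPM, but 77.8%, 48.1%, 46.4% and 16.4% of its UMIs came from 1 cell.

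Genes of G2 and mitosis were lower at day 14 in the arterial-gated cells, whereas those of S phase were not. Of 52 G2/M genes, 28, 20 and 31 were compared, 2, 0 and 1 were higher by 2-fold or more and 1, 1 and 14 lower by as much, against 6.61%, 11.3% and 4.21% of all compared genes higher and 7.43%, 10.7% and 2.69% lower. The medians of the G2/M genes were 0.15, 0.29 and -0.85, and in members with low mural genes 0.03, -0.32 and -0.88, so the sign at fractionated day 7 differed. At day 14 only 9 of the 31 compared G2/M genes were above the free RNA limit, with a median of -0.50. The day 14 median was -1.23 in capillary-gated and 0.05 in venular-gated cells. The part of RNA of other cells in this difference was not tested. Of the S-phase genes, 19, 12 and 24 were compared, 1, 0 and 2 were past 2-fold on the higher side and 1, 1 and 0 on the lower side, with medians of 0.31, 0.02 and 0.06. Mki67, the proliferation antigen Ki-67, was at 58.4, 57.5, 72.8 and 20.7 CPM, and Top2a, a mitotic topoisomerase, at 38.9, 48.4, 72.8 and 17.1 CPM. At day 14 both were also under the free RNA limit, since other cells of the control expressed them more. After thinning, cells holding Mki67 or Top2a UMIs made up 4.10% (2.20 to 6.91), 3.11% (1.56 to 5.49), 3.94% (2.11 to 6.64) and 1.33% (0.667 to 2.37) of the arterial-gated cells. Without thinning the shares were 11.7%, 8.49%, 4.62% and 5.50%, whose order differed from the thinned one. In epithelial cells the thinned shares were 14.9%, 14.6%, 11.1% and 13.1%.

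The single-dose and fractionated libraries of day 7, with the same total dose, differed in many genes of the arterial-gated cells. Mural-high members made up 23.6% and 3.85% of them, and the part of this in the differences was not tested beyond the values in members with low mural genes. Of 6737 genes compared, 595 (8.83%) were at least 2-fold higher at fractionated day 7 than after the single dose and 721 (10.7%) at least 2-fold lower. Tnfsf10, the death ligand TRAIL, was at 70.0, 23.8, 176 and 60.7 CPM, 7.41-fold (5.54 to 10.1) higher in the fractionated library. Cst3, the protease inhibitor cystatin C, was at 3741, 1683, 8511 and 5556 CPM, 5.06-fold (4.88 to 5.24) higher. Upk3bl1 was at 6.84, 3.17, 36.8 and 14.2 CPM, 11.6-fold (5.39 to 28.6) higher. Sox18 was 4.92-fold (4.07 to 5.96) higher and Jag2 2.08-fold (1.80 to 2.42) higher, while Gja5 and Nos3 were within 1.5-fold. The named lower genes were Gjc1, C1qtnf1 and Fos. C1qtnf1, a secreted protein of the adiponectin family, was at 74.7, 341, 16.3 and 75.4 CPM, and its log2 ratio of -4.39 was -1.96 in members with low mural genes. Gjc1 was 35.3-fold (13.6 to 130.4) lower and Fos 18.9-fold (12.9 to 28.9) lower. With low mural genes alone, 6.45% of 5876 genes were higher by as much and 8.68% lower. Of 1316 genes past 2-fold, 878 were past it the same way in members with low mural genes and 57 changed sign.

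Between day 7 and day 14 of the fractionated schedule, the day 7 genes came down, and the stress genes and many p53 targets went up. Of 8268 genes compared, 1184 (14.3%) were at least 2-fold higher at day 14 and 886 (10.7%) at least 2-fold lower. Slco2a1 was 9.38-fold (6.94 to 12.8) lower, Col15a1 6.15-fold (5.45 to 6.95) lower and Scgb1a1 14.1-fold (7.90 to 26.6) lower. Sox18 was 6.06-fold (5.16 to 7.12) lower and Nos3 2.66-fold (2.26 to 3.13) lower. Fos was 529-fold (364 to 803) higher. Fosb, which pairs with Jun, was at 4021, 135, 5.14 and 2910 CPM, 566-fold (260.2 to 1544) higher. Atf3, a stress-induced repressor, was at 3410, 59.1, 18.8 and 4989 CPM, 265-fold (175 to 423) higher. Cdkn1a was 3.20-fold (2.88 to 3.56) higher and Gdf15 10.3-fold (6.62 to 16.9) higher. Among the p53 targets, 9 of 26 were at least 2-fold higher and 1 lower, with a median log2 ratio of 0.58 beside -0.05 for all compared genes. Counting any size, 18 were higher and 8 lower. Perp led the list and was lower, and Btg2, also induced early by stress, and Plk3 followed and were higher. Rps27l and Gtse1 were lower at day 14 than at day 7. The part of the immediate-early difference in this count was not tested. With low mural genes alone, 11.8% of 7239 genes were higher by as much and 9.55% lower. Of 2070 genes past 2-fold, 1631 were past it the same way in members with low mural genes and 37 changed sign. This comparison and that of day 7 with the control share the fractionated day 7 library.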

How the data were processed

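Per the labels' protocols, fresh esophagi were stored cold and shipped, and those of 5 rats per group were pooled, digested, cleared of dead cells and captured with 10x Genomics 3' chemistry. The authors deposited raw UMI counts of 32623 features per library, with no normalization. They had been made with Cell Ranger (5.0.0), per the submitters' processing notes, which list mRatBN7.2 beside rn7 as builds. No source used here gives the annotation release. Features sharing 1 of 30017 symbols were summed. Of 752 symbols in 29 gene lists, 35 matched no feature, and Pecam1, 1 of 19 gate genes, matched none.

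Members and lists were chosen with earlier results of these data known. Counts of the members were summed per library and divided by their total to give CPM (Python 3.11.15, numpy 2.4.6, scipy 1.17.1, pandas 2.3.3). With 1 library per group no test was made. Genes with at least 50 UMIs in a pair were compared by ratio, with exact conditional binomial 95% intervals, and called at 2-fold. A library at 0 was set to a floor of 3 counts. Shares have exact Clopper-Pearson and levels exact Poisson intervals, for counting error only. Doublets were called with Scrublet in scanpy 1.11.5 and kept. The ratio code was checked on simulated counts.

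Named genes were the 6 highest and 6 lowest per comparison with the control and 3 and 3 for the other comparisons, ranked by the interval bound nearest 1 among genes above the free RNA limit (0.5 times the level in a non-endothelial class of at least 100 cells), up to 4 per list, and any arterial, Notch or connexin gene. Mitochondrial, ribosomal protein, haemoglobin, unnamed and gate genes were left out, and 1 gene that the rule names is not reported here. Alternatives were other barcode, gate and gene minimums, gates without a gene, doublets left out, other scaling, and thinning to 1000 UMIs.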

Additional observations from a re-analysis of the deposited data

Results flagged for a closer look

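The genes below differed from a reference library in opposite directions in arterial-gated and venular-gated cells, each with a 95% counting interval that excluded 0 on the log2 scale. There was 1 library per group, so the difference between the classes was not tested. Gpx3, a secreted glutathione peroxidase, had a log2 ratio of -2.39 (-3.28 to -1.58) in arterial-gated cells and of 1.19 (0.67 to 1.75) in venular-gated cells after the single dose against the control. Cpe, a carboxypeptidase that processes peptide hormones, had -2.15 (-2.92 to -1.45) against 1.24 (0.70 to 1.80) at fractionated day 7 against the control. Krt13, a keratin of esophageal epithelium and thus no endothelial gene, had -2.38 (-2.53 to -2.24) against 1.06 (0.73 to 1.41) after the single dose and -4.03 (-4.21 to -3.86) against 1.76 (1.46 to 2.08) at day 14, both against the control. RT1-Da, a class II gene, had -1.38 (-1.93 to -0.86) against 2.07 (1.5 to 2.66) at fractionated day 7 against the single dose, with most of its UMIs in 1 arterial-gated cell in both libraries.

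Barcodes that passed the arterial gate but exceeded the mitochondrial limit were not used above. They were 3.58% (1.97 to 5.93) of the gate's barcodes in the single-dose library, or 14 barcodes, against 0.893% (0.185 to 2.59), or 3, in the control, and 1.27% and 0.357% in the fractionated libraries.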

How the results depend on the processing

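No paired analysis was possible because each group was 1 pooled library, and leaving out a replicate was impossible for the same reason. Median-of-ratios scaling shifted all log2 ratios to the control by -0.14, -0.11 and -0.07 for the single dose, fractionated day 7 and day 14, which put below 0 the small positive medians of the Notch and S-phase lists at day 14, of the flow, S-phase and coagulation lists at fractionated day 7, and of the p53, leukocyte adhesion, antigen presentation, glycolysis, coagulation and mural lists after the single dose. Depth limited the fractionated day 7 library most, and genes under 50 UMIs were not compared. Alternatives on mural genes, a Cdh5 UMI and thinning before the gate were chosen after seeing the data.

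Log2 ratios of the share of kept barcodes to the control (single dose, fractionated day 7, day 14) were 0.77, 0.83 and 1.91 with at least 1000 UMIs and at most 10% mitochondrial UMIs, and 1.88, 2.30 and 2.27 with at most 5 fibroblast UMIs per 10000. With low mural genes they were 0.70 and 1.18 at day 7, with a Cdh5 UMI 0.84 at fractionated day 7, and with thinning before the gate 0.21 for the single dose. Fractionated day 7 against the single dose gave -0.085 without Podxl, 0.42 with the fibroblast limit of 5, 0.48 with low mural genes and 0.41 with a Cdh5 UMI, and day 14 against fractionated day 7 gave -0.025 with the fibroblast limit of 5 and 0.55 with low mural genes. For the share of blood endothelium, the log2 ratio was -0.28 without Podxl and 0.17 with thinning (fractionated day 7 against single dose), 1.00 with low mural genes (fractionated day 7 against control) and 0.51 with thinning (single dose against control).

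Counts past 2-fold changed with the minimum of UMIs. At 20 UMIs, 753 genes were higher and 851 lower after the single dose, 1209 and 1049 at fractionated day 7, 672 and 432 at day 14, and 1008 higher at fractionated day 7 than after the single dose. At 200 UMIs the counts were 163 and 219, 204 and 260, 104 and 83, then 201 and 300 between the schedules and 584 and 325 between the days. With the fibroblast limit of 5, 324 and 358 genes were lower in the day 7 libraries. With low mural genes 435 were lower at fractionated day 7, and 379 were higher than after the single dose, or 358 with a Cdh5 UMI. The arterial list's median was 0.28, 0.51 and 0.53 with the fibroblast limit of 5, 0.21 with low mural genes (day 14 against fractionated day 7) and 0.11 with a Cdh5 UMI (between the schedules). Without thinning, cells with Mki67 or Top2a were 11.7%, 8.49% and 5.50% in the control, single-dose and day 14 libraries.

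Among named genes past 2-fold, 7 values changed sign. Cd74 turned to -0.28 (single dose, stricter barcode filter), -1.11 (fractionated day 7, at least 2 arterial UMIs) and -1.47 (fractionated day 7, without Podxl). RT1-Da turned to 0.37 (between the schedules, stricter filter) and -0.19 (day 14, without Podxl). Cnn1 turned to 0.80 (day 14, fibroblast limit of 5) and 1.79 (day 14, a Cdh5 UMI). The cause of these changes was not tested. Another 4290 values of named genes stayed within their interval and 791 moved beyond it.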

Other observations

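Interferon-stimulated genes of the arterial-gated cells were mostly lower after the single dose and higher at fractionated day 14. Of 40 such genes with a feature, 21, 21 and 34 had enough UMIs to compare with the control in the single-dose, fractionated day 7 and day 14 libraries, 1, 6 and 8 were at least 2-fold higher and 7, 1 and 1 at least 2-fold lower. All compared genes gave 6.61%, 11.3% and 4.21% higher and 7.43%, 10.7% and 2.69% lower. The median log2 ratio was -0.55, 0.37 and 0.67, and in members with low mural genes -0.52, 0.01 and 0.64, so at fractionated day 7 it was then below the 0.11 of all genes. Ifitm3, a membrane protein that blocks virus entry, was at 2183, 6074, 3175 and 3075 CPM in the 4 libraries and was the 1 such gene at least 2-fold higher after the single dose. Oas1a, an RNA sensor, was at 18.4, 31.3, 77.9 and 82.6 CPM, 4.23-fold (2.84 to 6.44) and 4.49-fold (3.18 to 6.53) above the control in the fractionated libraries. Irf7, the master factor of the interferon response, was at 7.36, 4.76, 13.7 and 29.6 CPM, 4.02-fold (2.32 to 7.52) higher at day 14. Of 20 antigen presentation genes, 14, 13 and 14 were compared, 4, 4 and 6 were at least 2-fold higher and 1, 0 and 0 lower. In members with low mural genes 1 of 13 was higher and 1 lower at fractionated day 7, with a median of 0.01. RT1-CE5, a class I gene, was at 49.4, 67.4, 78.8 and 197 CPM, 3.98-fold (3.22 to 4.97) higher at day 14. RT1 class I genes are near copies of each other, so their reads can be split between them. The class II gene RT1-Da was at 17.4, 80.1, 30.8 and 46.4 CPM, but 69.7%, 72.3%, 63.9% and 49.4% of its UMIs came from 1 cell, and it was under the free RNA limit in the comparisons with the control.

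Genes of TGF-beta and BMP signalling had no common direction, with 4, 3 and 5 of 33, 26 and 37 compared genes at least 2-fold higher and 5, 7 and 1 lower. All compared genes gave 6.61%, 11.3% and 4.21% higher and 7.43%, 10.7% and 2.69% lower, so the 3 of 26 higher at fractionated day 7 were near the background. Eng, the endoglin co-receptor, was at 287, 669, 876 and 444 CPM, 2.33-fold (2.11 to 2.57) and 3.05-fold (2.75 to 3.39) above the control at day 7. Id4, a BMP target, was at 97.3, 44.0, 14.6 and 214 CPM, 2.21-fold (1.74 to 2.82) and 6.69-fold (4.06 to 11.7) lower at day 7 and 2.20-fold (1.88 to 2.59) higher at day 14. Of 34 genes of hypoxia and glycolysis, 26, 24 and 28 were compared, 3, 1 and 0 were at least 2-fold higher and 5, 4 and 1 lower, with medians of 0.03, -0.16 and 0.09. The shares of all compared genes are those given for TGF-beta and BMP signalling. Ankrd37, a hypoxia target, was at 24.2, 4.76, 3.42 and 34.7 CPM, 5.09-fold (2.65 to 10.5) lower after the single dose, and Pfkfb3, a regulator of glycolysis, was at 28.9, 7.93, 11.1 and 40.2 CPM, 3.65-fold (2.15 to 6.43) lower. Adm, given above, was also lower. Eno1, an enolase, was at 239, 558, 391 and 242 CPM, 2.33-fold (2.10 to 2.60) higher after the single dose, and Pgk1, a phosphoglycerate kinase, was at 247, 499, 191 and 265 CPM, 2.02-fold (1.81 to 2.25) higher. Of the venous genes outside the gate, 14, 11 and 13 were compared. Of these, 3, 4 and 0 were at least 2-fold higher and 2, 4 and 1 lower. All compared genes gave 6.61%, 11.3% and 4.21% higher and 7.43%, 10.7% and 2.69% lower. The venous medians were 0.26, 0.30 and 0.10. At fractionated day 7 the median was 1.03 over the 8 genes above the free RNA limit and -0.09 in members with low mural genes. Ephb4, the venous receptor of ephrin-B2, was at 50.5, 66.6, 144 and 53.3 CPM, 2.85-fold (2.20 to 3.70) higher at fractionated day 7. Nr2f2, the venous transcription factor COUP-TFII, was at 103, 89.2, 29.97 and 92.7 CPM, 3.44-fold (2.39 to 5.08) lower in the same library.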
